A study of Mus musculus with 10 samples.

Results

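The 7 genes described here are the angiopoietin ligands Angpt1 and Angpt2, the receptors Tek (which encodes TIE2) and Tie1, and 3 transcripts enriched in endothelial tip cells, Esm1, Cxcr4 and Pdgfb. They were picked from a table of 35275 genes by an exact match of the gene symbol, and all 7 were among the 13610 genes expressed well enough to be tested. RNA-Seq was performed on whole lungs of CD1 mouse pups at postnatal day 6 (P6). One group was heterozygous for Dll4 (Dll4+/-, 1 allele replaced by a lacZ reporter in the germ line), and littermates with both alleles intact (Dll4+/+) were the controls. Each genotype had 4 libraries from separate pups, 2 labelled female and 2 labelled male. The outbred CD1 background was used because heterozygous embryos die on C57BL/6, and every cell of a Dll4+/- pup carried the allele from conception. Samples called Dll4+/+ replicates 1 and 2 were not analysed here, so the controls are replicates 3 to 6.

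Angiopoietins act through TIE2 on endothelial cells. ANGPT1, supplied mainly by pericytes and other mesenchymal cells, activates the receptor and holds vessels quiescent, whereas ANGPT2, released by endothelial cells, blocks or weakly activates it depending on context. TIE1 binds no angiopoietin with high affinity and modifies TIE2 signaling as a partner receptor. In the mouse retina, tip cells lead each vascular sprout and express Esm1, Cxcr4 and Pdgfb, and DLL4 on the tip cell signals through Notch to keep its neighbors from becoming tips.

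Tek and Tie1 were the members that varied together most closely, and the sequences around their start sites are shown for that reason. RefSeq windows (mouse build GRCm38.p6, 250 bases before the start to 50 after) were on hand for 4 of the 7 genes, Tek, Tie1, Esm1 and Cxcr4. Capitals mark every GGAAG or its other strand CTTCC, which is the GGAA core read by ETS factors followed by a G, and every AGATAA or its other strand TTATCT, a core read by GATA factors. Both sequences are printed 5' to 3' along the strand of the gene.
Tek, chr4:94739039-94739338, plus strand: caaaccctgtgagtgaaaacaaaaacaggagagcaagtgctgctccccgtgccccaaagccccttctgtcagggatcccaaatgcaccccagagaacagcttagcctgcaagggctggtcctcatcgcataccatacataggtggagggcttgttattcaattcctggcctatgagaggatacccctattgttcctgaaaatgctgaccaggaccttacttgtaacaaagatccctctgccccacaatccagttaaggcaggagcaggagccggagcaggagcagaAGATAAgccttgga
Tie1, chr4:118489800-118490099, minus strand: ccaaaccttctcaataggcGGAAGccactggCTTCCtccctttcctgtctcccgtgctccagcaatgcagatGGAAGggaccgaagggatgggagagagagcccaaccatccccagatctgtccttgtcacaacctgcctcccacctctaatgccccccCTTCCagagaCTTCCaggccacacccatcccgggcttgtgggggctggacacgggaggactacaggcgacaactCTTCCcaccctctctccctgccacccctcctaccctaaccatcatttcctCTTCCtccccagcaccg
The Tie1 window held 7 GGAAG matches and no AGATAA match, and the Tek window held 0 and 1. The windows of Esm1 and Cxcr4 held 0 of either. The shorter GGAA (or TTCC), not marked by itself, occurred 9 times in Tie1, 4 in Esm1, 2 in Tek and 1 in Cxcr4, and it was present in 96.0% of all windows (median 3). Among 32544 mouse windows of the same length, 71.3% held at least 1 GGAAG (median 1, with 7 or more in 0.234%) and 11.2% held AGATAA. The Tie1 window was thus among the windows richest in GGAAG letters, and Tek and Tie1 shared neither GGAAG nor AGATAA. The RefSeq start of Tie1 lay 212 bases inside the gene as GENCODE places it (first base 118490061), so that 5 of its 7 matches fell within the GENCODE gene and 6 before the RefSeq start. For Tek and Esm1 both annotations gave the same start.

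In outline, 0 of the 7 genes, all protein coding, passed the test between genotypes. The wild-type libraries agreed closely in each gene but Esm1, whereas 2 to 4 of the 4 heterozygous libraries lay outside the wild-type range in each gene. Values outside that range were common over all genes tested as well. In Dll4+/- replicates 1 to 4, 43.0%, 15.1%, 22.0% and 31.8% of all genes lay below it. Above it lay 28.7%, 22.1%, 27.8% and 28.3%. Expression is given in FPKM, fragments counted per kilobase of exon and divided by sequencing depth, which allows levels of different genes to be set side by side. Differences are given as log2 fold change of FPKM + 1, Dll4+/- minus Dll4+/+, from limma, with p adjusted over all 13610 genes. That scale understates changes of low genes such as Esm1. The lungs were measured in bulk, so fewer cells of a type and less RNA per cell cannot be told apart.

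Depth ranged from 17201662 to 22927840 fragments per library. Dll4 itself was 14.8 ± 4.36 FPKM in Dll4+/- and 27.6 ± 4.12 in Dll4+/+ lungs (SD, n = 4 each, two-sided exact permutation p = 0.0286, the smallest that 4 against 4 allows). Dll4+/- replicates 1 and 4 stood apart most across genes, with median Spearman correlations to the other libraries of 0.919 and 0.956. Dll4+/+ replicate 3 came next at 0.964, close to Dll4+/- replicate 4, and the remaining libraries had 0.981 to 0.985. The limma library weight of Dll4+/+ replicate 3, 0.282, was also close to the 0.245 of Dll4+/- replicate 4. Settings without Dll4+/- replicates 1 and 4 kept that wild-type library. Dll4+/- replicates 1 and 4 are also the 2 Dll4+/- libraries labelled male, so labelled sex and these libraries cannot be told apart within that genotype. Sex transcripts of Dll4+/- replicate 2 went against its label (Xist 0.273 and Ddx3y 20.3 FPKM in a pup labelled female). Endothelial markers were well expressed in each library, with Pecam1 at 107 to 243 and Cdh5 at 70.3 to 229 FPKM.

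**Figure D1:**
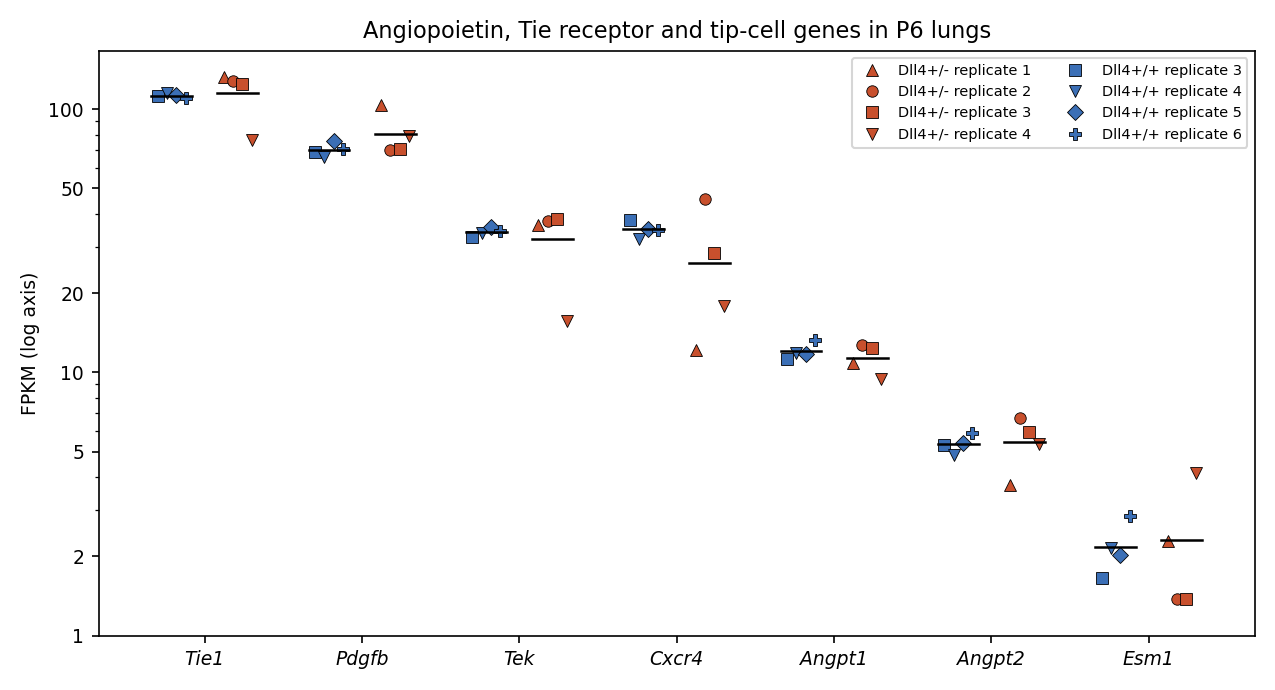
Expression of the 7 genes in each library, in FPKM on a log axis, ordered from highest to lowest mean; blue symbols are Dll4+/+, red symbols are Dll4+/-, and black bars are group means (n = 4 each). Wild-type symbols sit close together in each gene but Esm1, whereas Dll4+/- replicate 4 lies low for Tek (15.7) and Tie1 (76.4), and replicate 1 low for Cxcr4 (12.2).

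Among the members, Tie1 was the most abundant transcript and Esm1 the least. Means over the 8 libraries were 114 FPKM for Tie1, 75.5 for Pdgfb, 33.1 for Tek, 30.5 for Cxcr4, 11.7 for Angpt1, 5.39 for Angpt2 and 2.24 for Esm1. Neighbors in this order were compared within libraries by a two-sided exact sign-flip permutation test, adjusted over the 6 neighboring pairs. Tie1 exceeded Pdgfb 1.51-fold in 7 of 8 libraries (exact p = 0.0156, adjusted p = 0.0187). Tek and Cxcr4 were the 1 neighboring pair that did not pass the test, Tek being higher in 4 of 8 libraries (1.13-fold, 0.822 to 2.98, exact p = 0.586). In Dll4+/+ lungs alone their means were close, at 34.2 FPKM for Tek and 35.0 for Cxcr4, and the higher gene differed between lungs. Each of the remaining 4 steps held in 8 of 8 libraries, with exact p = 0.00781, the smallest possible, and adjusted p = 0.0117. The steps were 2.33-fold from Pdgfb to Tek, 2.44-fold from Cxcr4 to Angpt1, 2.18-fold from Angpt1 to Angpt2 and 2.54-fold from Angpt2 to Esm1. TIE1 mRNA was therefore more abundant than TIE2 mRNA in every lung, and Angpt1 more abundant than Angpt2 in every lung.

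The ligands came first in the genotype comparison. Angpt1 (ENSMUSG00000022309, chr15:42424723-42676977, minus strand, GRCm38) was 11.2, 11.9, 11.7 and 13.2 FPKM in Dll4+/+ replicates 3 to 6. In Dll4+/- replicates 1 to 4 it was 10.9, 12.7, 12.3 and 9.43 FPKM. Replicates 1 and 4 lay below the wild-type range and replicates 2 and 3 within it. Group means were 11.3 ± 1.49 and 12.02 ± 0.854 FPKM in Dll4+/- and Dll4+/+ (SD, n = 4 each). The log2 fold change of -0.08 (95% interval -0.35 to 0.18) missed the threshold (limma adjusted p = 0.862, exact permutation p = 0.486 on FPKM). The level rested on 852 to 1180 fragments per library.

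Angpt2 (ENSMUSG00000031465, chr8:18690263-18741562, minus strand) was 5.32, 4.86, 5.39 and 5.87 FPKM in Dll4+/+ replicates 3 to 6 and 3.74, 6.72, 5.91 and 5.33 FPKM in Dll4+/- replicates 1 to 4. Replicate 1 was below every wild-type library, and replicates 2 and 3 were above every one. The means of 5.43 ± 1.26 and 5.36 ± 0.414 FPKM (SD, n = 4 each) were close, and the log2 fold change, taken between means of log2 values, was -0.01 (95% interval -0.36 to 0.35, limma adjusted p = 0.994). When Dll4+/- replicate 1 was left out it was 0.13 (limma adjusted p = 0.969).

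Only mRNA was measured, so the balance of the ligands was read as the ratio of Angpt2 to Angpt1 transcripts within each lung. It was 0.474, 0.409, 0.459 and 0.444 in Dll4+/+ replicates 3 to 6. In Dll4+/- replicates 1 to 4 it was 0.343, 0.530, 0.479 and 0.565. Replicates 2, 3 and 4 were above the wild-type range, replicate 3 narrowly, and replicate 1 below it. The mean log2 ratio differed by 0.08 (exact permutation p = 0.629). As the other 3 heterozygous lungs were above that range, leaving out Dll4+/- replicate 1 fixed full separation in advance. The difference was then 0.23, with the smallest p that 3 against 4 allows (exact permutation p = 0.0286). With Dll4+/- replicate 4 left out instead, it was -0.01 (exact permutation p = 1.0). Without both Dll4+/- replicates 1 and 4 it was 0.18 (exact permutation p = 0.133). The size and sign of the difference therefore turned on which heterozygous library was left out.

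**Figure D2:**
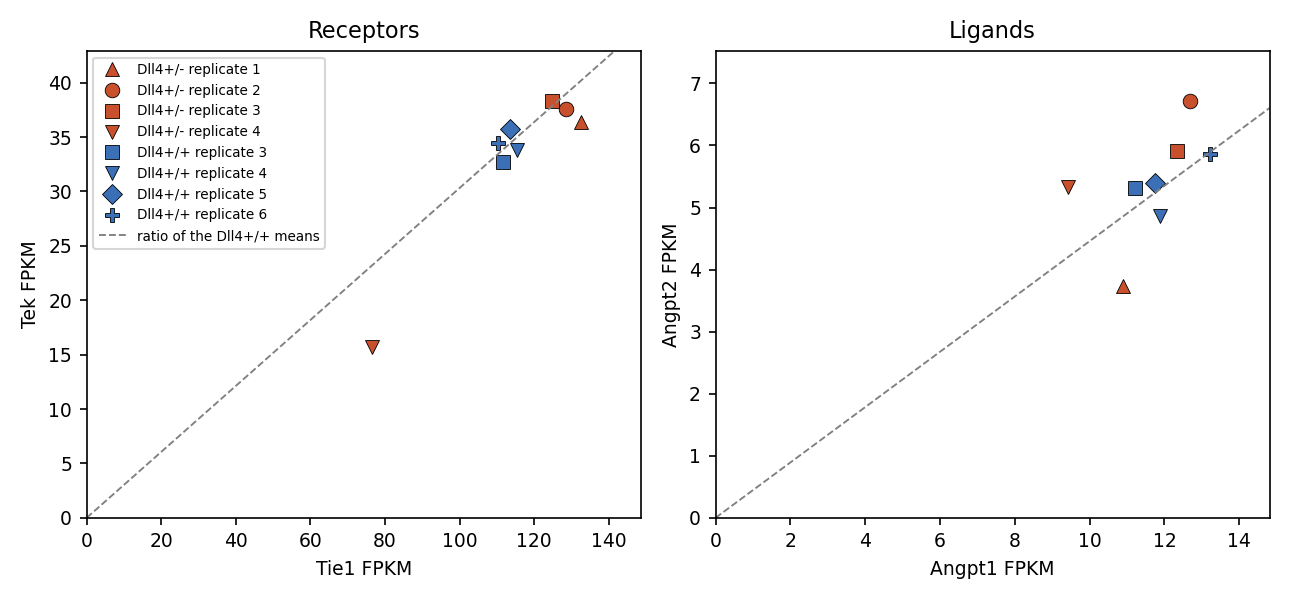
FPKM of Tek against Tie1 (left) and of Angpt2 against Angpt1 (right), 1 symbol per library, with a dashed line through 0 at the ratio of the Dll4+/+ means. In the receptor plot 7 libraries lie between 32.7 and 38.3 FPKM of Tek and Dll4+/- replicate 4 lies alone at 15.7; in the ligand plot Dll4+/- replicate 1 lies below the line with a ratio of 0.343.

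Both receptors showed the same split of heterozygous libraries around the wild-type range. Tek (ENSMUSG00000006386, chr4:94739289-94874976, plus strand) was 32.7, 33.8, 35.8 and 34.5 FPKM in Dll4+/+ replicates 3 to 6 and 36.4, 37.6, 38.3 and 15.7 FPKM in Dll4+/- replicates 1 to 4. Replicates 1, 2 and 3 were above every wild-type library, and replicate 4, at 45.9% of the wild-type mean, was below every one. Means were 32.0 ± 10.9 and 34.2 ± 1.29 FPKM in Dll4+/- and Dll4+/+ (SD, n = 4 each). The log2 fold change was -0.17 (95% interval -0.75 to 0.40, limma adjusted p = 0.866, exact permutation p = 1.0), and it was 0.13 without Dll4+/- replicate 4 (limma adjusted p = 0.694).

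Tie1 (ENSMUSG00000033191, chr4:118471191-118490061, minus strand) was 112, 115, 114 and 110.4 FPKM in Dll4+/+ replicates 3 to 6. In Dll4+/- replicates 1 to 4 it was 133, 128, 125 and 76.4 FPKM. Again 3 heterozygous libraries were above all wild-type ones and replicate 4, at 67.8% of the wild-type mean, was below them. Means were 116 ± 26.3 and 113 ± 2.13 FPKM (SD, n = 4 each). The log2 fold change was 0.00 (95% interval -0.39 to 0.40, limma adjusted p = 0.997). It was 0.19 without Dll4+/- replicate 4 and -0.07 without replicate 1 (limma adjusted p = 0.694 and 0.975).

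In the library where both receptors were low, other endothelial transcripts were low too. Of 20 pan-endothelial markers, 16 lay below the wild-type range in Dll4+/- replicate 4 and 2 above it (median log2 difference from the wild-type mean -0.35). In Dll4+/- replicate 1, 14 lay above that range and 4 below it (median 0.33). Of all 13610 genes tested, 31.8% were below and 28.3% above that range in replicate 4, and 43.0% below and 28.7% above it in replicate 1. The summed level of the 20 markers came to 1541 FPKM in Dll4+/- replicate 4. It ranged from 1927 to 2473 FPKM over replicates 1 to 3 and from 2005 to 2232 FPKM over Dll4+/+. Tek in replicate 4 was low also relative to these markers, at -1.42 on the log2 scale against -0.79 to -0.69 in Dll4+/+. Tie1 in that library was at 0.86 against 0.96 to 1.03. By this measure Dll4+/- replicate 1 was below the wild-type libraries as well, at -0.94 for Tek and 0.92 for Tie1. Their ratio, Tek to Tie1, was 0.205 in replicate 4, where the remaining 7 libraries had 0.274 to 0.315 (genotypes compared, exact permutation p = 0.143). All 7 megakaryocyte and platelet markers tested lay above the wild-type range in the same library (median 0.85), beside the 28.3% of all genes. Summed, the platelet markers ranged from 59.1 to 134 FPKM in Dll4+/- and from 60.4 to 91.3 in Dll4+/+, with Pf4 at 32.4 to 67.4 and none at 0. The part of either group of markers in the receptor values was not tested.

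Of the tip-cell genes, Esm1 (ENSMUSG00000042379, chr13:113209659-113218098, plus strand), which encodes the secreted proteoglycan endocan, was the lowest and had the greatest coefficient of variation. It was 1.66, 2.16, 2.02 and 2.86 FPKM in Dll4+/+ replicates 3 to 6 and 2.28, 1.37, 1.38 and 4.16 FPKM in Dll4+/- replicates 1 to 4. Replicates 2 and 3 were below the wild-type range and replicate 4 was above it, at 191% of the wild-type mean. The means of 2.30 ± 1.31 and 2.17 ± 0.502 FPKM (SD, n = 4 each) were close, and on the scale of mean log2 values the difference was -0.01 (95% interval -0.57 to 0.56, limma adjusted p = 0.994). Only 56 to 200 fragments stood behind each value, and counting error alone is 13.4% of the value at 56 fragments. It was -0.40 without Dll4+/- replicates 1 and 4 and -0.39 with library weights estimated by limma (limma adjusted p = 0.849 and 0.820). In the lung with the lowest Tek and Tie1, Esm1 was thus at its highest.

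Cxcr4 (ENSMUSG00000045382, chr1:128588199-128592293, minus strand), the receptor for the chemokine CXCL12 on tip cells and on leukocytes, had the greatest difference between genotypes among the 7. It was 38.0, 32.0, 35.2 and 34.8 FPKM in Dll4+/+ replicates 3 to 6. In Dll4+/- replicates 1 to 4 it was 12.2, 45.7, 28.4 and 17.9 FPKM. Replicates 1, 3 and 4 were below every wild-type library and replicate 2 above every one. Means were 26.1 ± 14.7 and 35.0 ± 2.45 FPKM in Dll4+/- and Dll4+/+ (SD, n = 4 each). The log2 fold change of -0.57 (95% interval -1.31 to 0.17) missed the threshold (limma adjusted p = 0.811, exact permutation p = 0.314). It was -0.28 without Dll4+/- replicate 1, -0.89 when replicate 2 was left out and 0.04 without both replicates 1 and 4 (limma adjusted p = 0.969, 0.626 and 0.951).

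Markers of leukocytes were looked at beside Cxcr4, since these cells express it. The 14 leukocyte markers tested had medians between -0.30 and 0.18 in the 8 libraries, and 5 lay above and 4 below the wild-type range in Dll4+/- replicate 1, where 28.7% and 43.0% of all genes did. The neutrophil genes S100a8 and S100a9 were 540.3 and 596 FPKM in that library, against 36.4 to 84.4 elsewhere, while its Cxcr4 was the lowest of all. Over the whole list the summed level was 160.4 to 1260 FPKM in Dll4+/- and 182 to 256 FPKM in Dll4+/+, and of the markers below the filter Ly6g was listed at 0 in Dll4+/+ replicate 3. The part of leukocytes in the Cxcr4 values was not tested.

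Pdgfb (ENSMUSG00000000489, chr15:79995874-80014977, minus strand) encodes the growth factor by which endothelial sprouts recruit pericytes. It was 68.5, 65.7, 75.8 and 70.7 FPKM in Dll4+/+ replicates 3 to 6 and 104, 69.9, 70.8 and 78.8 FPKM in Dll4+/- replicates 1 to 4. Replicates 1 and 4 were above the wild-type range, replicate 1 at 148% of the wild-type mean, and the other 2 were within it. Means were 80.8 ± 15.9 and 70.2 ± 4.27 FPKM (SD, n = 4 each), and the log2 fold change was 0.19 (95% interval -0.13 to 0.50, limma adjusted p = 0.811, exact permutation p = 0.200). That value fell to 0.06 in the absence of replicate 1 (limma adjusted p = 0.969). In Dll4+/- replicate 1, 8 of 14 pericyte markers lay above the wild-type range and 4 below it (median 0.34), beside 28.7% and 43.0% of all genes there. Their summed level there, 872 FPKM, was nevertheless inside the wild-type range of 834 to 906 FPKM, and it was 676 to 872 FPKM over the heterozygous libraries. Their part in the Pdgfb value was not tested.

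**Figure D3:**
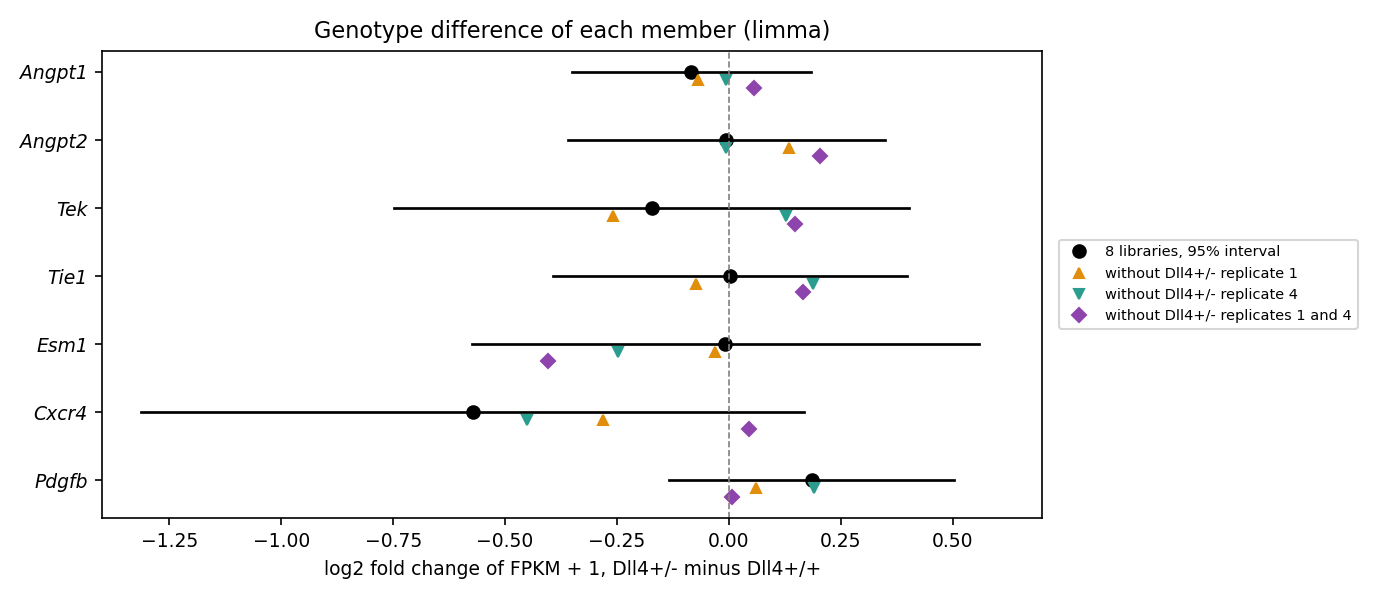
Log2 fold change of FPKM + 1, Dll4+/- minus Dll4+/+, for each gene; black circles and lines are the limma estimate and its 95% interval over 8 libraries, and colored symbols the estimate without the libraries named. Each interval crosses 0, and for Tek the symbol moves from -0.17 to 0.13 without Dll4+/- replicate 4.

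Taking the comparison as a whole, 0 of the 7 genes passed an adjusted p of 0.05 in limma, beside 0% of the 13610 genes tested. The smallest limma adjusted p of any gene was 0.277. The test thus did not call Dll4 itself, at 14.8 FPKM in Dll4+/- and 27.6 in Dll4+/+, and 0 calls do not mean that the members were unchanged. At an unadjusted p of 0.05 the count was 0 of 7, beside 3.36% of all genes (457). With voom on fragment counts recovered from the FPKM values it was also 0 of 7 at either threshold, beside 0 and 411 genes. The libraries of both genotypes overlapped in each of the 7 genes, whereas they did not overlap in 3.12% of all genes. The intervals reached down to -1.31 for Cxcr4 and -0.75 for Tek.

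The spread of the members was wider among heterozygous lungs. The coefficient of variation among Dll4+/+ lungs was 1.89% for Tie1, 3.77% for Tek, 6.09% for Pdgfb, 6.996% for Cxcr4, 7.11% for Angpt1, 7.72% for Angpt2 and 23.1% for Esm1, with a median of 12.4% over all genes tested. Among Dll4+/- lungs it was 22.8%, 34.1%, 19.6%, 56.6%, 13.2%, 23.2% and 57.1% in the same order of genes, with a median of 20.5% over all genes. The SD of FPKM was higher in Dll4+/- than in Dll4+/+ for each of the 7, from 1.75-fold for Angpt1 to 12.4-fold for Tie1, beside a median of 1.65-fold over all genes. A wider spread in Dll4+/- was thus present over all genes as well, and these ratios were not tested.

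**Figure D4:**
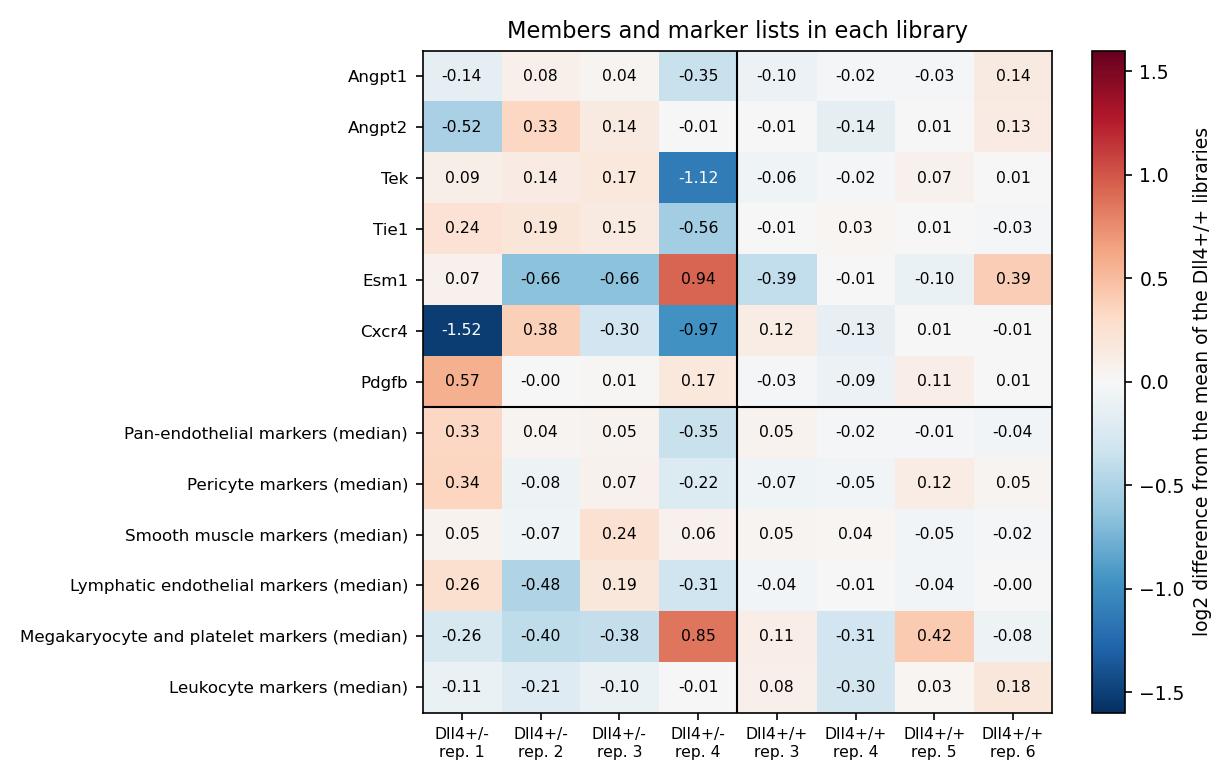
Log2 difference of each library from the mean of the Dll4+/+ libraries, given for the 7 genes (top) as log2 of FPKM over the wild-type mean and for 6 marker lists (bottom) as the median difference on log2(FPKM + 1), with red above and blue below that mean. Dll4+/- replicate 1 has its lowest value in Cxcr4 (-1.52) and replicate 4 in Tek (-1.12), and the 4 Dll4+/+ columns stay between -0.39 and 0.39 for the 7 genes.

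Relative to pan-endothelial markers within the same lung, 0 of the 7 genes passed the test between genotypes. The difference in mean log2 level was -0.10 for Angpt1, -0.02 for Angpt2, -0.19 for Tek, -0.01 for Tie1, -0.06 for Esm1, -0.61 for Cxcr4 and 0.18 for Pdgfb (exact permutation p = 0.629, 1.0, 0.429, 0.943, 0.943, 0.200 and 0.400). Cxcr4 relative to these markers was -2.52, -0.36, -1.11 and -1.24 in Dll4+/- replicates 1 to 4 and -0.81 to -0.57 in Dll4+/+. Dll4+/- replicate 2 was the 1 heterozygous lung above the wild-type range and the other 3 were below it, so leaving it out fixed full separation in advance. The difference was then -0.92, with the smallest p that 3 against 4 allows (exact permutation p = 0.0286). Leaving out replicate 1 gave -0.21 (exact permutation p = 0.400), and without replicates 1 and 4 it was -0.04 (exact permutation p = 0.867).

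Across the 8 libraries, 28 relations were computed on log2(FPKM + 1), 21 between members and 7 with the pan-endothelial mean. Tie1 and the pan-endothelial mean were the only pair to pass adjustment (r = 0.956, exact permutation p = 0.000893, adjusted p = 0.025), though by rank they did not (Spearman correlation = 0.905, exact permutation p = 0.00456, adjusted p = 0.128). Without the 2 libraries farthest from the median, Dll4+/- replicates 1 and 4, r was 0.782 over 6 libraries (exact permutation p = 0.0653). Tek and Tie1 had r = 0.957 (exact permutation p = 0.00397, adjusted p = 0.0556) and Spearman correlation = 0.786 (exact permutation p = 0.0279, adjusted p = 0.261). Without Dll4+/- replicates 3 and 4, the farthest for Tek, r was 0.766. Among the Dll4+/+ libraries alone, r of Tek and Tie1 was 0.139. Cxcr4 and Pdgfb ran in opposite directions (r = -0.863, exact permutation p = 0.0120, adjusted p = 0.0907; Spearman correlation = -0.643, exact permutation p = 0.0962, adjusted p = 0.404), but r was 0.04 without Dll4+/- replicates 1 and 4. That relation therefore rested on 2 libraries. Angpt1 and Angpt2 had r = 0.481 (exact permutation p = 0.221, adjusted p = 0.387) and Spearman correlation = 0.690 (exact permutation p = 0.0694, adjusted p = 0.404), and Angpt2 and Tek r = 0.05 (exact permutation p = 0.853, adjusted p = 0.884) and Spearman correlation = 0.500 (exact permutation p = 0.216, adjusted p = 0.404).

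For each member, the genes of highest Pearson r over the 8 libraries were taken from all genes tested, as a description that shares the 2 most outlying libraries and without a test. Tie1 was closest to Sema3a (0.99), Arhgef15 (0.98) and Lipa (0.98). Tek was closest to Nucb1 (0.996), Reep1 (0.99) and Pcdh1 (0.99), all of which were at their lowest in Dll4+/- replicate 4. Pdgfb was closest to Ppp1r12c (0.99), Dlgap4 (0.99) and Cspg4 (0.99), the last encoding the pericyte proteoglycan NG2. The FPKM of Cspg4 was 12.1 in Dll4+/- replicate 1, with 6.07 to 8.28 elsewhere. Cxcr4 was closest to Zfp422 (0.99), to the S-phase cyclin Ccne2 (0.98) and to Aunip (0.98). Like Cxcr4, Ccne2 was lowest in Dll4+/- replicate 1, at 1.58 FPKM against 2.73 to 7.26 elsewhere. Angpt1 was closest to Dennd6a (0.97), Tox3 (0.96) and Fyb (0.96), Angpt2 to Gm7180 (0.99), Lancl2 (0.97) and Polr3b (0.97), and Esm1 to Acot13 (0.99), Ufsp1 (0.97) and Fbp2 (0.96).

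With the sex labels taken into account, 0 of the 7 genes had an interaction of sex and genotype that passed (limma, adjusted over all genes), where 3 of 13610 genes did and 1036 lay under an unadjusted p of 0.05. Cxcr4 had the greatest interaction of the 7 (-1.35, SE 0.36, limma adjusted p = 0.567). It was the 1 of the 7 under an unadjusted p of 0.05 (limma unadjusted p = 0.00781). Its genotype difference was 0.10 in pups labelled female and -1.24 in pups labelled male. The heterozygous pups labelled male were Dll4+/- replicates 1 and 4 alone, so the -1.24 cannot be told apart from these outlying libraries. Dll4+/- replicate 2, labelled female with Ddx3y above Xist, had the highest Cxcr4 of all libraries (45.7 FPKM). Leaving out Dll4+/- replicate 2, whose sex transcripts went against its label, the interaction of Cxcr4 was -1.01 (limma unadjusted p = 0.0232, adjusted p = 0.995), and 0 genes passed, with 534 under an unadjusted p of 0.05. The females of that fit were represented in Dll4+/- by replicate 3 alone, assumed to vary like the other groups.

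The wider angiopoietin-TIE pathway gave no call. Of 23 partners tested, 14 were higher and 9 lower in Dll4+/-, 0 passed, and the median log2 fold change was 0.05 beside -0.02 over all genes. One, Tnip2, which encodes the ABIN2 inhibitor of NF-kB that binds TIE2 signaling complexes, lay under an unadjusted p of 0.05 (0.44, limma adjusted p = 0.811). Tnip2 was 22.8, 13.4, 12.9 and 18.2 FPKM in Dll4+/- replicates 1 to 4 and 10.9 to 12.2 in Dll4+/+, so that the genotypes did not overlap. Over all genes, 3.36% lay under that unadjusted p and 3.12% did not overlap, so 1 of 23 is near the background. Ptprb, the phosphatase VE-PTP that removes phosphate from TIE2, was at 0.16, Svep1, a matrix protein that binds TIE1, at 0.07, and the effector Foxo1 at 0.04 (limma adjusted p = 0.876, 0.923 and 0.930). Ptprb reached 37.5 FPKM in the lung with the lowest Angpt2, Dll4+/- replicate 1, against 14.8 to 24.4 FPKM elsewhere. The most abundant partners were Itgb1 (-0.06) and Akt1 (-0.01), and the ligand Angpt4 was below the filter at 0.174 to 0.840 FPKM.

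FOXO1 lies downstream of TIE2, where active AKT keeps it out of the nucleus. Of 14 FOXO1-linked genes tested, 8 were higher and 6 lower, with 0 passing and a median of 0.02 (-0.03 without Dll4+/- replicate 1). Klf2, a flow-responsive transcription factor, was the 1 gene of 14 under an unadjusted p of 0.05 (-0.50, limma adjusted p = 0.811), beside 3.36% of all genes. Its level was 123, 88.6, 152 and 88.6 FPKM in Dll4+/- replicates 1 to 4 and 147 to 172 in Dll4+/+. Txnip, which restrains glucose uptake, was 456 FPKM in Dll4+/- replicate 1 against 92.9 to 125 elsewhere (0.46, limma adjusted p = 0.812).

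Binding partners of the tip-cell gene products also gave 0 calls, beside 0% of all genes. Of 12 tested, 6 were higher and 6 lower, and 0 lay under an unadjusted p of 0.05, beside 3.36% of all genes. Their median was -0.02 (0.08 without Dll4+/- replicates 1 and 4). The CXCR4 ligand Cxcl12 was at 0.04, the scavenging receptor Ackr3 at -0.30 and the PDGF-B receptor Pdgfrb at 0.10 (limma adjusted p = 0.964, 0.811 and 0.847). Cxcl12 was highest (64.2 FPKM) in the lung where Cxcr4 was lowest, Dll4+/- replicate 1, and lowest (31.6 FPKM) in replicate 4, where Cxcr4 was low as well. The most abundant partners were Fn1 (0.29) and the chemokine-like Mif (-0.21).

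Other sprouting tip-cell genes gave 12 higher and 15 lower of 27 tested, with 0 passing and a median of -0.06. The direction of that median turned without Dll4+/- replicates 1 and 4 (0.13, 21 higher and 6 lower), beside a median of 0.025 over all genes. It turned also with library weights (0.08, 20 higher and 7 lower), beside 0.0036 over all genes. Of all genes, 45.9% were higher in the main fit, 56.2% without those replicates and 51.5% with weights. Besides Dll4 (-0.88), the vascular peptide Adm (0.78) and the growth factor binding protein Igfbp3 (0.85) lay under an unadjusted p of 0.05, each at a limma adjusted p of 0.811. Of all genes, 3.36% lay under that unadjusted p. Adm was 32.0, 12.3, 12.9 and 27.0 FPKM and Igfbp3 60.8, 17.3, 15.99 and 30.4 FPKM in Dll4+/- replicates 1 to 4. In Dll4+/+ they were 9.11 to 13.5 and 10.5 to 17.3 FPKM. In both genes the high values were those of replicates 1 and 4, as for Pdgfb. Apln, made by tip-like capillary cells, was at 0.09, and the most abundant of the list, the basement membrane collagens Col4a1 and Col4a2, at 0.18 and 0.25 (limma adjusted p = 0.875, 0.894 and 0.837). Of 12 stalk-cell genes, 0 lay under an unadjusted p of 0.05 (7 higher, 5 lower, median 0.12, or -0.07 without Dll4+/- replicate 1), with the decoy VEGF receptor Flt1 at 0.14, the Notch target Hes1 at -0.29 and the apelin receptor Aplnr at -0.21.

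Marker lists of the cell types that carry or surround these genes gave 0 calls as well. Medians were 0.03 over 20 pan-endothelial, -0.03 over 14 pericyte, 0.06 over 10 smooth muscle, -0.02 over 7 lymphatic endothelial, -0.04 over 7 megakaryocyte and platelet and 0.16 over 14 leukocyte markers. When both Dll4+/- replicates 1 and 4 were left out, the medians were -0.14 for leukocyte, -0.39 for platelet and -0.19 for lymphatic markers. With replicate 1 alone left out, they were -0.05 for pan-endothelial, -0.13 for pericyte and -0.10 for leukocyte markers, and with replicate 4 alone left out 0.16 for pan-endothelial markers. Genes under an unadjusted p of 0.05 were Cox4i2 of pericytes (-0.50), the hyaluronan receptor Lyve1 (-1.24), the platelet receptor Clec1b (0.44) and Cd3g of T cells (-0.61), each at a limma adjusted p of 0.811. The share of all genes under that unadjusted p was 3.36%. Lyve1 was 19.9, 100.3, 50.9 and 16.9 FPKM in Dll4+/- replicates 1 to 4 and 77.8 to 109 in Dll4+/+. Replicates 1 and 4 were its lowest libraries, as they were for Cxcr4. The most abundant markers were Cldn5 (-0.44) and Egfl7 (0.11) of endothelium, Mcam (-0.08) of pericytes, Acta2 (0.03) and Tagln (0.01) of smooth muscle, Ccl21a (-0.54) of lymphatic endothelium, Pf4 (-0.04) and Itga2b (0.10) of platelets, and S100a8 (0.55) and S100a9 (0.32) of neutrophils.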

How the data were processed

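Total RNA of whole P6 lungs was made into poly-A selected NEBNext Ultra libraries and read as paired ends on a NovaSeq. The submitters' processing notes name CASAVA, STAR (no versions) and GRCm38.p4; the abundance estimator, annotation and strand setting are not given in the sources used here. The authors deposited FPKM per gene, with 8 library columns for 10 samples. Group means, ratios, log2 fold changes and p-values in the deposited table are the authors' own comparisons and were not used. In 239 genes a substituted FPKM of 0.005 was set back to 0.

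FPKM steps gave whole fragments (tolerance 0.01) for 13610 of 13610 genes tested, 1454 of them at the annotated exon length, so for the others fragment counts may be off by a factor common to all libraries. Genes reaching an FPKM of 1 in 4 libraries were tested on log2(FPKM + 1), pseudocount 1, with limma 3.58.1 (R 4.3.3, empirical Bayes with trend, Benjamini-Hochberg, threshold 0.05), a test written for all samples and run on 4 against 4. Permutation tests were two-sided and exact (Python 3.11.15, numpy 2.4.6, scipy 1.17.1). Steps were tested on simulated data. Libraries are separate pups, and litters were not modelled. Counting errors cover fragments only.

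The genes and lists were chosen with earlier results of these data known. Named were the 7 genes, each listed gene under an unadjusted p of 0.05, the 2 most abundant of each list, 10 direct partners and the 3 closest genes by r. Positions are from GENCODE M21 (GRCm38). Alternatives were other pseudocounts, filters and scalings, library weights, labelled sex, a replicate block, voom, and libraries left out. Replicate numbers name pups and were not taken to pair them, except in the replicate block.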

Additional observations from a re-analysis of the deposited data

Results flagged for a closer look

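In Dll4+/- replicate 4, Tek was 15.7 FPKM and Tie1 76.4 FPKM, each farther below the other 3 heterozygous libraries (36.4 to 38.3 and 125 to 133 FPKM) than Dixon's 95% limit for 4 samples allows. Of 30 groups of 4 libraries looked at, these 2 were set apart in this way, where the limit by itself sets apart about 5% of independent groups. The 30 groups share values and both flags came from the same library, so they are not independent. Relative to pan-endothelial markers neither gene was set apart. The share of all genes set apart in this way was not computed, and 31.8% of them lay below the wild-type range in that library.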

How the results depend on the processing

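At an adjusted p of 0.05, 0 of the 7 genes passed in any setting run, and 0 of all genes passed in any setting but library weights (3 genes) and the replicate block (16). Under an unadjusted p of 0.05, genes numbered 933 with no filter, 292 at a mean FPKM of 5 or more, 775 with library weights and 230 to 957 with 1 library left out (of the heterozygous libraries, 957 when replicate 2 and 707 when replicate 3 was dropped; of the wild-type ones, 230 when replicate 3 and 262 when replicate 4 was dropped). In limma, Esm1 lay under it with library weights (-0.39, unadjusted p = 0.0303, adjusted p = 0.820) and without Dll4+/- replicates 1 and 4 (-0.40, unadjusted p = 0.0421, adjusted p = 0.849). In limma, Cxcr4 lay under it without Dll4+/- replicate 2 (unadjusted p = 0.00567, adjusted p = 0.626) and with the replicate block (unadjusted p = 0.0431, adjusted p = 1.0).

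Signs of several differences, those of Tek and Cxcr4 included, turned with the setting, and the cause was not tested. Upper-quartile scaling gave 0.011 for Angpt2 and 0.0074 for Esm1, and rescaling to a fixed sum 0.033 and 0.0065. Weighting the libraries (weights of 0.128 and 0.245 for Dll4+/- replicates 1 and 4, 0.282 for Dll4+/+ replicate 3 and 1.77 to 4.15 for the others) led to 0.012 for Angpt1, 0.20 for Angpt2, 0.063 for Tek and 0.027 for Cxcr4. Without Dll4+/- replicates 1 and 4 the values were 0.056 for Angpt1, 0.20 for Angpt2, 0.15 for Tek and 0.044 for Cxcr4, and relative to pan-endothelial markers 0.15 for Angpt2, 0.068 for Tek, 0.084 for Tie1 and -0.078 for Pdgfb. With 1 library left out, log2 fold changes ranged from -0.14 to -0.01 for Angpt1, -0.10 to 0.13 for Angpt2, -0.28 to 0.13 for Tek, -0.074 to 0.19 for Tie1, -0.25 to 0.12 for Esm1, -0.89 to -0.28 for Cxcr4 and 0.06 to 0.25 for Pdgfb. The log2 ratio of Angpt2 to Angpt1 ranged from -0.0076 to 0.23. Relative to pan-endothelial markers the ranges were -0.16 to 0.012 for Angpt1, -0.17 to 0.24 for Angpt2, -0.28 to -0.026 for Tek, -0.055 to 0.033 for Tie1, -0.55 to 0.17 for Esm1, -0.92 to -0.21 for Cxcr4 and 0.036 to 0.27 for Pdgfb. Neighbors in the order of levels whose ranges did not overlap numbered 2 over all libraries and 5 in Dll4+/+ alone, and pairs of measures past the adjusted threshold 1 in all libraries, 0 without Dll4+/- replicates 1 and 4 and 4 on deviations from the genotype means.

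With the replicate block, Angpt2 was at 0.12, Tie1 at -0.21 and Esm1 at 0.27. Only numbers 3 and 4 occur in both genotypes, so the block drew each genotype difference from those libraries alone. Little was left to estimate the spread, and the p-values and calls of that setting carry little weight. Across genes the deviations of these libraries correlated at -0.23 and -0.06, within the -0.26 to 0.21 of pairs with unlike numbers. Whether pups of the same number shared a litter or batch was not tested, and the labels do not say. Precision is limited by 4 libraries a group, of which 2 heterozygous ones and, less so, Dll4+/+ replicate 3 stand apart, and for Esm1 by few fragments. The Esm1 difference has no value at a mean FPKM of 5 or more, since its level is below that filter.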
